A study of Homo sapiens with 6 samples.

Results

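ELF3, SPDEF, GATA3 and KRT8 are genes of the luminal epithelium, the layer of the breast duct that faces the lumen. They were taken by gene name from a table of 13707 genes, and all 4 were found and passed the filter on low counts. ELF3 and SPDEF encode transcription factors of the ETS family, which bind DNA at a short core that is often GGAA. GATA3 encodes a zinc finger factor that binds GATA sites, and KRT8 encodes keratin 8, a filament protein of simple epithelia. The RNA came from MDA-MB-231, an established human line of triple-negative breast cancer, meaning that it lacks the oestrogen and progesterone receptors and HER2 amplification. The study set cells given colistimethate against control cells. Colistimethate is a prodrug of the antibiotic colistin and was given at 20 µM. The 6 libraries carry only the titles C1, C2 and C3 or K1, K2 and K3, with 3 libraries per letter, and no label ties a letter to the drug or to the control. Each difference below is therefore C minus K, and neither letter is called treated. The labels speak of repeats without saying that each repeat was its own culture. The p-values thus cover the spread among these libraries, some of which may be technical.

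GATA3 is required for the luminal lineage of the mammary gland and is a marker of luminal breast tumours. ELF3 takes part in epithelial differentiation and is also induced by inflammatory cytokines. SPDEF is known from prostate and breast epithelium and drives mucus genes in goblet cells. Keratin 8 pairs with keratin 18 to build the intermediate filaments of luminal cells. Cells that have gone through an epithelial to mesenchymal transition usually hold little RNA of these regulators.

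The libraries held between 31438065 reads in K1 and 35946691 reads in K2 over the listed genes. The line showed its known mesenchymal profile: AXL, a receptor kinase, lay between 709.5 and 878 TPM, and MSN, which encodes moesin, between 920 and 1108 TPM over the 6 libraries. TPM, transcripts scaled to a common library total, corrects for gene length and depth. CDH1, which encodes the adhesion protein E-cadherin of epithelia, was listed at 0 reads in every library. The basal keratins KRT5 and KRT14 were also at 0, and EPCAM, a surface protein of epithelia, lay between 4.24 and 6.10 TPM. ESR1, PGR, ERBB2, VIM, KRT18 and KRT19 were not analysed here.

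The DNA just upstream of a RefSeq start of each gene is shown because 3 of the 4 genes were lower in the same libraries. It lets their letters be compared. The sequences are RefSeq's on GRCh38.p14, written 5′ to 3′ on the strand of the gene. Capitals mark GGAA, a core bound by many ETS factors, or its reverse complement TTCC, and CACCTG, an E-box bound by ZEB and SNAI repressors. Other forms of the ETS core were not searched. Each window reaches up to 250 bases before that start and leaves out exons annotated for the gene. The ELF3 window lies within a first exon of one annotated transcript, so only 30 bases around its E-box are shown. They lie at chr1:202010455-202010484 on the plus strand. The SPDEF stretch is chr6:34556334-34556579 on the minus strand, the GATA3 stretch chr10:8054438-8054652 on the plus strand and the KRT8 stretch chr12:52926470-52926719 on the minus strand.
ELF3: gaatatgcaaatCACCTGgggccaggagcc
SPDEF: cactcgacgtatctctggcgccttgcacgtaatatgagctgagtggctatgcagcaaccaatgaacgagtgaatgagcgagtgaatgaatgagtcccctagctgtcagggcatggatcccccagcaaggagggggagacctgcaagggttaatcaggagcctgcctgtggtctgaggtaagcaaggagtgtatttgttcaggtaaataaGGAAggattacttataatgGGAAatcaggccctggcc
GATA3: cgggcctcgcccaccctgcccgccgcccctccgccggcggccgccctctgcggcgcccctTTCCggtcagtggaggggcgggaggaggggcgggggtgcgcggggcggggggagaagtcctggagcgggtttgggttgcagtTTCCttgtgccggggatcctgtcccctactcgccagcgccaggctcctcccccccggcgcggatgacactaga
KRT8: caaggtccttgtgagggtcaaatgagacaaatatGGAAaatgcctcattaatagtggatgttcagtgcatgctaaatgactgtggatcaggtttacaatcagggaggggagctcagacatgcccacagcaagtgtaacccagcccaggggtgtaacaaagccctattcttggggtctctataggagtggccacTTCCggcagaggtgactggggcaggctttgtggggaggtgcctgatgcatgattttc

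The stretches differed in base composition, with 75.8% G and C in GATA3 against 51.2% in SPDEF and 50.4% in KRT8. In the full 250 bases each gene had 2 matches to GGAA on either strand, a core present in 92.7% of the 35116 RefSeq promoter windows, where the median is 3 matches. The E-box CACCTG was found in ELF3, starting 120 bases before its RefSeq start, and in 17.5% of all windows. It was not found in the windows of SPDEF, GATA3 and KRT8. The GATA sites AGATAA and TGATAA were in none of the 4 windows, and in 9.17% and 6.66% of all windows. GATA3 has 6 RefSeq promoter windows and the one nearest to the deposited start was used. The RefSeq start used for ELF3 lies 2642 bases inside the start of its deposited row, so the E-box lies within that row. For KRT8 the RefSeq start lies 23413 bases inside. Other starts of ELF3 and KRT8 are thus not covered.

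ELF3, SPDEF and GATA3 were lower in C, while KRT8 did not pass the test. Levels in C were 0.327 times those in K for ELF3, 0.381 times for SPDEF and 0.722 times for GATA3, in CPM (counts scaled to the library total, here with TMM factors). All 3 passed edgeR's quasi-likelihood test at an adjusted p of 0.05, as did 3.41% of the 9057 tested genes in the same direction. In all 3 every C library stood below every K library, as in 17.7% of tested genes. The genes were taken up with earlier results of these data known, so nothing is read from their count against that share. In whole-culture RNA, fewer cells that express a gene and less RNA per cell cannot be told apart.

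**Figure D1:**
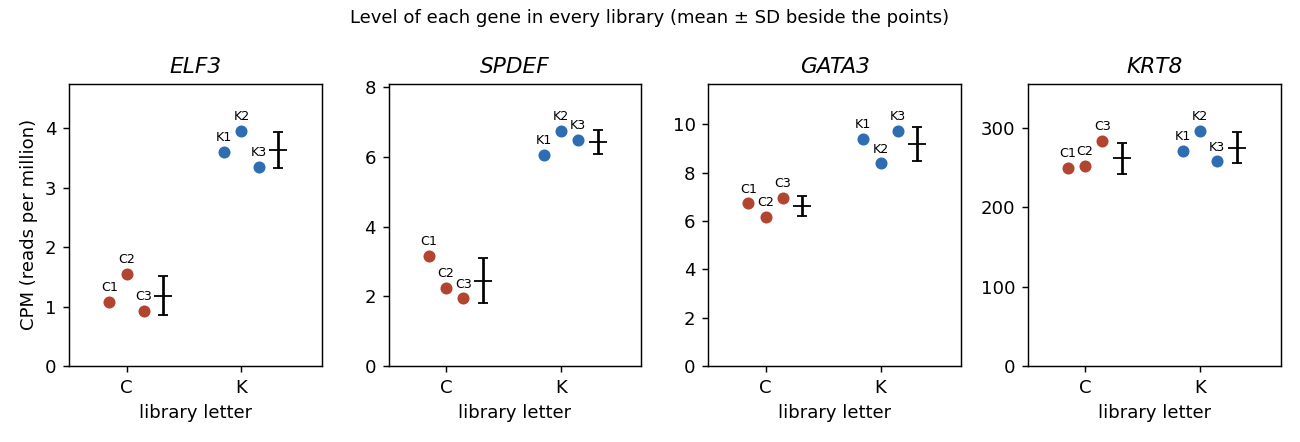
CPM of ELF3, SPDEF, GATA3 and KRT8 in each library, one point per library, with C on the left, K on the right and the mean ± SD (n = 3) beside the points. The C points of ELF3, SPDEF and GATA3 all lie below the K points, and those of KRT8 lie among them.

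ELF3 (ENSG00000163435, chromosome 1, 202007945 to 202017188, plus strand, GRCh38) was the lowest of the 4. It had 36, 52 and 30 reads in C1, C2 and C3, against 113, 142 and 106 reads in K1, K2 and K3. These are 1.09, 1.55 and 0.926 CPM in C and 3.60, 3.96 and 3.35 CPM in K, so the highest C library stood below the lowest K library by more than the range within either letter. ELF3 averaged 1.19 ± 0.323 CPM in C and 3.64 ± 0.305 CPM in K (SD, n = 3 each). The log2 fold change was -1.61 (SE 0.213, 95% interval -2.12 to -1.10, adjusted p = 0.0175 in edgeR). The coefficient of variation between libraries was 27.2% in C and 8.39% in K. The call was lost without C1 (adjusted p = 0.0763), C3 (0.0578), K1 (0.0591) or K3 (0.0612), while the log2 fold change stayed between -1.85 and -1.46.

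The deposited TPM gave ELF3 as 0.296, 0.613 and 0.386 in C1 to C3 and 1.13, 1.36 and 1.15 in K1 to K3. The letters did not overlap on that scale either, but the order within C changed: C1 was lowest in TPM and C3 lowest in reads. TPM divided by CPM depends on the length used for a gene. It also depends on read assignment, if that differed between the TPM and the counts. For ELF3 this quotient ran from 0.272 in C1 to 0.417 in C3, against 0.314 to 0.344 in K. For SPDEF the same quotient lay between 0.699 and 0.717 in C and between 0.705 and 0.713 in K. The quotient of ELF3 thus varied between libraries more than that of SPDEF. The ratio of C to K was 0.356 in TPM, 0.350 in FPKM and 0.327 in CPM. GENCODE release 29 gives 664 exonic bases of ELF3, 9.23% of its exons, to the opposite-strand gene ELF3-AS1 and to the same-strand gene AL691482.3 as well. Whether counting used strand is not given in the sources used here, so reads in those bases cannot be assigned to ELF3 alone. Of the 75-base exonic windows of ELF3, 14.7% are found in these 2 genes.

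**Figure D2:**
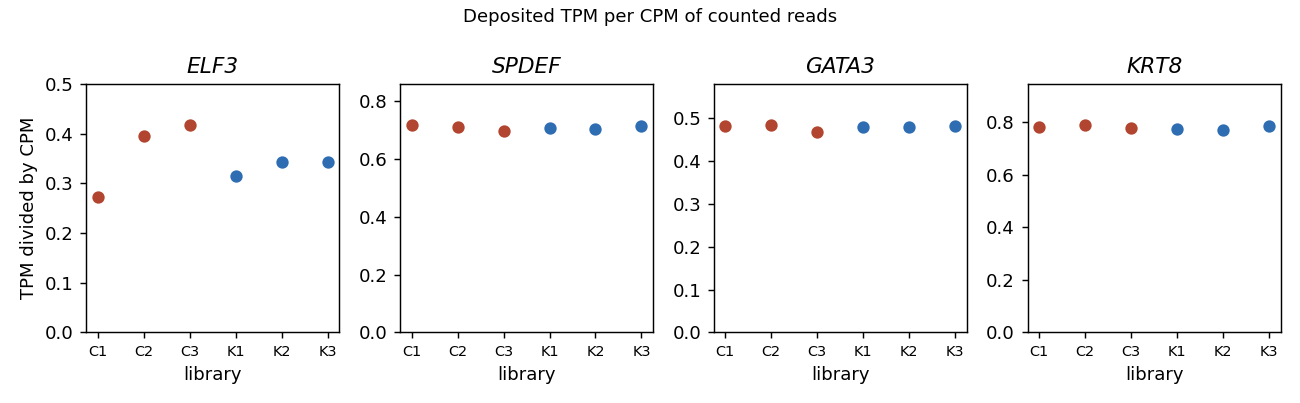
Deposited TPM divided by CPM of the deposited counts for ELF3, SPDEF, GATA3 and KRT8, one point per library, C libraries in red and K libraries in blue. ELF3 runs from 0.272 in C1 to 0.417 in C3, while SPDEF stays between 0.699 and 0.717.

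SPDEF (ENSG00000124664, chromosome 6, 34537802 to 34556333, minus strand), the other ETS factor, showed nearly as large a difference at a somewhat higher level. It had 105, 75 and 63 reads in C1, C2 and C3, against 190, 242 and 205 reads in K1, K2 and K3. C1 was the highest C library at 3.17 CPM, with C2 at 2.23 and C3 at 1.94 CPM, and the K libraries lay at 6.05, 6.74 and 6.48 CPM. SPDEF averaged 2.45 ± 0.641 CPM in C and 6.43 ± 0.350 CPM in K (SD, n = 3 each), with a log2 fold change of -1.39 (SE 0.194, 95% interval -1.86 to -0.92, adjusted p = 0.0192 in edgeR). C libraries varied more than K libraries here too, with coefficients of variation of 26.2% in C and 5.45% in K. No exon of SPDEF overlaps another gene in GENCODE release 29, and none of its 75-base windows is found in another gene. The call was lost without C2 (adjusted p = 0.0692), C3 (0.0578), K1 (0.0597) or K3 (0.0760). Without C1 it was held with a larger difference (log2 fold change -1.62, adjusted p = 0.0171).

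GATA3 (ENSG00000107485, chromosome 10, 8054693 to 8075198, plus strand) differed less than ELF3 and SPDEF. Its coefficient of variation was 6.27% in C and 7.64% in K, below both of theirs in C only. It had 223, 207 and 226 reads in C1, C2 and C3, against 295, 301 and 308 reads in K1, K2 and K3. In CPM these are 6.74, 6.17 and 6.97 in C and 9.39, 8.39 and 9.74 in K, with no overlap. GATA3 averaged 6.62 ± 0.415 CPM in C and 9.17 ± 0.701 CPM in K (SD, n = 3 each). The log2 fold change was -0.47 (SE 0.0992, 95% interval -0.71 to -0.23), and the adjusted p of 0.0493 in edgeR lay just under the threshold. Leaving out any one library ended the call, with adjusted p between 0.0520 without K2 and 0.147 without K3. It was also lost with DESeq2 size factors, limma-voom, no count filter and both TPM fits, with adjusted p from 0.0504 to 0.0585, the direction staying the same. No 75-base window of GATA3 is found in another gene.

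KRT8 (ENSG00000170421, chromosome 12, 52897187 to 52949882, minus strand) was the abundant gene of the 4. It had 8262, 8463 and 9196 reads in C1, C2 and C3, and 8534, 10645 and 8159 reads in K1, K2 and K3. The letters overlapped: C3 at 283.8 CPM stood above K1 at 271.7 and K3 at 257.9 CPM, and only K2 at 296.7 CPM was higher. KRT8 averaged 262 ± 19.1 CPM in C and 275 ± 19.6 CPM in K (SD, n = 3 each). The log2 fold change was -0.07 (95% interval -0.25 to 0.10, adjusted p = 0.553 in edgeR), so small differences in either direction lie within the interval. Under 17 alternatives the log2 fold change ran from -0.14 to -0.02 and none passed the threshold. Reads of KRT8 are partly uncertain, since 9.49% of its 75-base exonic windows are found on either strand in 16 other genes. KRT18 shares the most of these windows, and 12 of the 16 genes are KRT8 pseudogenes. KRT18 lies on the opposite strand and overlaps 525 exonic bases of KRT8, or 7.63%, so this overlap is not a further source.

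By length-scaled level the order was KRT8, GATA3, SPDEF and ELF3, with means of 209.6, 3.79, 3.14 and 0.822 TPM over the 6 libraries. KRT8 stood above 94.1% of tested genes in TPM, GATA3 above 21.3%, SPDEF above 19.5% and ELF3 above 9.44%. GATA3 stood above SPDEF in all 3 C libraries (3.17 ± 0.158 TPM for GATA3 and 1.74 ± 0.477 TPM for SPDEF). In K1 and K3 GATA3 was also the higher, and in K2 the lower, with means in K of 4.42 ± 0.341 TPM for GATA3 and 4.55 ± 0.250 TPM for SPDEF that differed by less than either SD. ELF3 was lowest in all 6 libraries. As a percentage of the KRT8 TPM of the same library, SPDEF stood at 1.16%, 0.798% and 0.614% in C1 to C3, against 2.03%, 2.07% and 2.28% in K1 to K3.

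**Figure D3:**
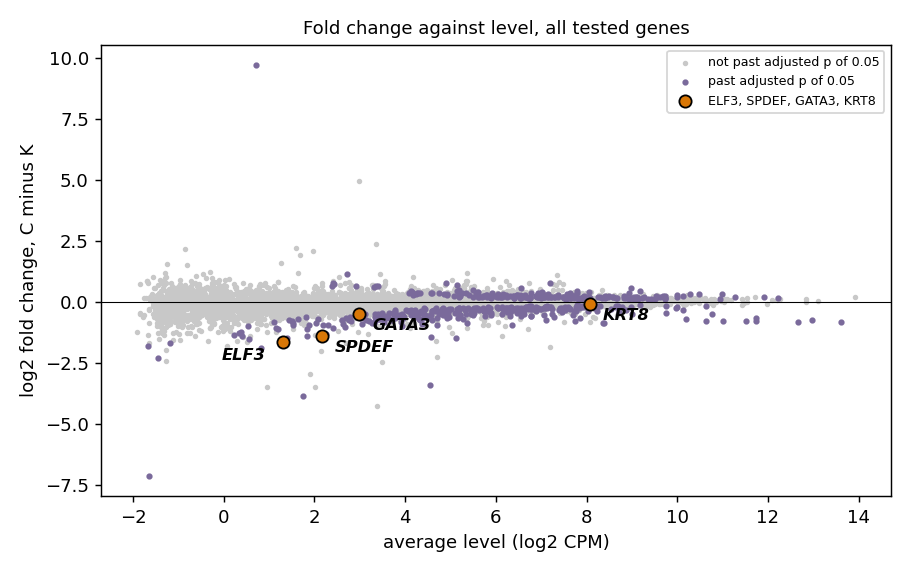
Log2 fold change, C minus K, against average level in log2 CPM for the 9057 tested genes, with genes past an adjusted p of 0.05 in purple and the 4 genes in orange. ELF3 (-1.61) and SPDEF (-1.39) lie at the lower edge of genes of their level, GATA3 (-0.47) nearer the middle and KRT8 (-0.07) at the line of no change.

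Low counts vary more, so each gene was also set beside tested genes within 0.5 log2 CPM of its own average. Of 405 such genes around ELF3, 3 had a lower log2 fold change and 2.72% passed the test. Of 446 around SPDEF, 4 were lower and 3.59% passed. Around GATA3, 52 of 612 were lower and 5.07% passed. Around KRT8, 127 of 752 were lower, and 8.11% passed. The typical size of a difference also shrank with level, with a median absolute log2 fold change of 0.22 around ELF3 and 0.09 around KRT8.

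Few other luminal genes could be tested. A list of 42 luminal markers and regulators had 18 genes in the table, of which 4 were at 0 reads in all libraries and 10 passed the count filter. Of these 10, 1 was lower in C past the test, 0 were higher and 9 did not pass, with a median log2 fold change of -0.21, against -0.00 over all tested genes. Over all tested genes, 5.61% passed in either direction. Values after ± for list genes are SDs over 3 libraries. The summed level of the luminal list lay between 93.3 and 101.5 CPM in C and between 110.0 and 113.3 CPM in K.

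FOXA1, a pioneer factor that works with GATA3 in luminal cells, had 4.98, 4.38 and 4.01 CPM in C1 to C3, against 3.60, 3.60 and 3.76 CPM in K1 to K3. Its C libraries all stood above its K libraries, as in 16.1% of tested genes. This is the opposite order to GATA3, but the FOXA1 difference did not pass (log2 fold change 0.29, 95% interval -0.01 to 0.58, adjusted p = 0.193). CLDN7, a tight junction protein and 1 of the 2 most abundant of the list, had 15.3 ± 3.26 CPM in C, against 17.7 ± 2.99 CPM in K (adjusted p = 0.528). CLDN4, a related junction protein named after its values were seen, had 280, 217 and 18 reads in C1 to C3, against 274, 278 and 244 reads in K1 to K3. Its mean in C was thus set by C3, and its interval ran from -2.45 to 1.16.

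**Figure D4:**
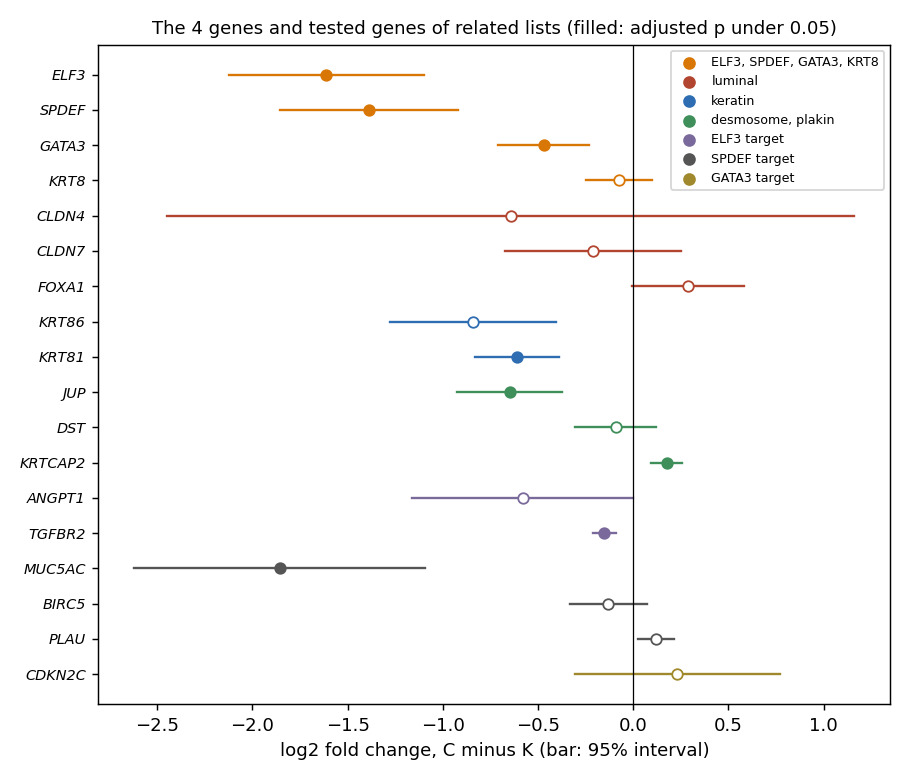
Log2 fold change, C minus K, with 95% interval for ELF3, SPDEF, GATA3 and KRT8 and for the tested genes named in the text from the luminal, keratin, desmosome and target lists, filled where the adjusted p was under 0.05. MUC5AC (-1.86), ELF3 (-1.61) and SPDEF (-1.39) lie farthest below 0, and the interval of CLDN4 is the widest.

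Of 36 other keratins in the list 19 were in the table. Of these 19, 15 were at 0 reads in every library and 2 passed the filter, both hair keratins. KRT81 had 8.67, 7.92 and 7.22 CPM in C1 to C3, against 12.1, 12.5 and 11.8 CPM in K1 to K3, so it was lower in C, at a log2 fold change of -0.61 ± 0.0919 (SE) that passed (adjusted p = 0.0242 in edgeR). Without any one library except K2 that call was lost, with adjusted p between 0.0529 and 0.0878. KRT86 had 2.48, 2.20 and 2.22 CPM in C against 3.50, 5.13 and 3.73 CPM in K, a log2 fold change of -0.84 that missed the threshold (adjusted p = 0.0509). The pair are near copies: 35.9% of the 75-base windows of KRT81 and 30.7% of those of KRT86 occur in other genes, chiefly in the other of the pair, so their reads are uncertain as separate genes.

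The list of desmosome, plakin and other keratin-linked names had 9 genes in the table, of which 8 were tested, with 1 lower in C, 1 higher and 6 not past the test (median log2 fold change -0.08). JUP encodes plakoglobin, which links desmosomes to keratins. It had 9.97, 10.8 and 11.2 CPM in C1 to C3, against 14.2, 17.6 and 18.3 CPM in K1 to K3, a log2 fold change of -0.65 ± 0.114 (SE) that passed (adjusted p = 0.0324 in edgeR). The JUP call was held without K1 (adjusted p = 0.0258) and was lost without any other library, with adjusted p between 0.0617 and 0.116, and on log2(TPM + 1) it was at 0.0542. KRTCAP2, in the list by its keratinocyte name and known as a subunit of the oligosaccharyltransferase, was higher in C (log2 fold change 0.18, adjusted p = 0.0424). Leaving out any one library ended its call, with adjusted p between 0.0529 and 0.145, as did testing without a count filter (0.0562). DST, a large linker of filaments, had 636 ± 33.7 CPM in C, against 678 ± 79.0 CPM in K, and missed the threshold (adjusted p = 0.552).

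Genes known as targets of the 3 factors were few in the table. The lists do not record whether a factor raises or lowers each target, so their medians may mix both. For SPDEF, 3 of 5 listed targets were tested, of which 1 was lower in C, 0 were higher and 2 did not pass (median log2 fold change -0.13). The lower one was MUC5AC, which encodes a gel-forming mucin of goblet cells. It had 16, 28 and 29 reads in C1 to C3, against 91, 67 and 104 reads in K1 to K3. The letters did not overlap, and the log2 fold change was -1.86 (SE 0.316, 95% interval -2.62 to -1.09, adjusted p = 0.0314 in edgeR). Without any one library except K2 the call was lost, with adjusted p between 0.0824 and 0.104. MUC5AC was low in absolute terms, at 0.0375, 0.0649 and 0.0676 TPM in C1 to C3 and 0.223, 0.142 and 0.254 TPM in K1 to K3. In limma on the deposited TPM it missed the threshold, at -0.19 on log2(TPM + 1) (adjusted p = 0.121) and -0.95 on log2(TPM + 0.1) (0.0793). The added 1 or 0.1 shrinks the fold change at TPM this low, so these values do not show a smaller difference in TPM. AGR2, a secretory protein and also a luminal marker, named after its values were seen, had 0, 4 and 0 reads in C1 to C3 against 17, 4 and 7 reads in K1 to K3 and was too low to test. PLAU, which encodes urokinase, had 333 ± 7.42 CPM in C, against 306 ± 11.8 CPM in K (adjusted p = 0.115), and BIRC5, which encodes survivin, had 135 ± 13.7 CPM in C, against 148 ± 10.1 CPM in K (adjusted p = 0.376).

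For ELF3, 2 of 5 listed targets were tested, and 1 was lower in C (median log2 fold change -0.37). TGFBR2, a receptor of TGF-beta, had 385.6, 390.6 and 393.0 CPM in C1 to C3, against 427.7, 434.2 and 436.6 CPM in K1 to K3, a log2 fold change of -0.15 ± 0.0256 (SE) that passed (adjusted p = 0.0309 in edgeR). The TGFBR2 call was lost without any one library except K2, with adjusted p between 0.0727 and 0.121, and on log2(TPM + 1) it was at 0.0753. ANGPT1, an angiopoietin, had 1.60 ± 0.315 CPM in C, against 2.38 ± 0.571 CPM in K (adjusted p = 0.187). For GATA3, 2 of 4 listed targets were tested, and 0 passed in edgeR, DESeq2 or limma-voom, with 0 at an unadjusted p under 0.05. The 2 were FOXA1, given above, and CDKN2C, a cell cycle inhibitor. CDKN2C had 53.6 ± 1.87 CPM in C, against 45.6 ± 14.0 CPM in K (adjusted p = 0.550 in edgeR). Its lower mean in K was set by K2 at 29.4 CPM, with K1 and K3 both at 53.7 CPM.

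Among relatives of the 3 factors, no tested gene was lower in C past the test. The ETS family had 16 other genes listed, of which 10 were tested, with 1 higher in C, 0 lower and a median log2 fold change of 0.01. The highest in level was ETS1, a factor of invasive cells, which averaged 554 ± 7.80 CPM in C, against 499 ± 3.80 CPM in K, a log2 fold change of 0.15 (adjusted p = 0.0297 in edgeR). Its call was lost without any one library except K2, with adjusted p between 0.0791 and 0.108, and on log2(TPM + 1) it was at 0.0550. ETV4, a factor downstream of growth factor signalling, had 154 ± 7.66 CPM in C, against 136 ± 2.94 CPM in K (adjusted p = 0.0682). ELF1 and ELF2, named after their values were seen, had log2 fold changes of -0.20 and -0.00 (adjusted p = 0.484 and 0.994).

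GATA family genes and cofactors gave 10 listed and 8 tested. Of these 0 passed in edgeR, DESeq2 or limma-voom and 0 had an unadjusted p under 0.05, with a median log2 fold change of 0.03. GATA2, the close relative of GATA3 in blood and endothelium, had 58.4 ± 3.91 CPM in C, against 53.9 ± 2.13 CPM in K, a log2 fold change of 0.11 (adjusted p = 0.291). LDB1, a cofactor of GATA complexes, had 140.1 ± 2.37 CPM in C, against 142 ± 7.92 CPM in K (adjusted p = 0.817).

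Of the basal and mesenchymal markers that passed the test, all but AXL were lower in C. Of 15 basal epithelial markers in the table, 5 were at 0 reads throughout and 7 were tested, with 2 lower in C, 0 higher and a median log2 fold change of -0.12. Among all tested genes, 3.41% passed lower in C and 2.20% higher. Both basal markers that passed encode parts of the hemidesmosome or its ligand. LAMA3, a laminin chain, had 171 ± 4.53 CPM in C, against 246 ± 7.80 CPM in K, a log2 fold change of -0.53 ± 0.0380 (SE) that passed (adjusted p = 0.00219), and this call was held without any one library but missed the threshold on log2(TPM + 1) (-0.44, adjusted p = 0.0728). ITGB4, an integrin chain, had 17.7 ± 2.50 CPM in C, against 27.1 ± 1.35 CPM in K, a log2 fold change of -0.61 (adjusted p = 0.0350). The ITGB4 call was lost without any one library except K2, with adjusted p between 0.0542 and 0.113, and on log2(TPM + 1) it was at 0.0730. The most abundant basal markers, SFN (131 ± 5.50 CPM in C, 129 ± 6.62 CPM in K) and EGFR (717 ± 21.0 CPM in C, 668 ± 20.5 CPM in K), did not pass, with adjusted p of 0.772 and 0.134. The summed level of the basal list lay between 1196 and 1264 CPM in C and between 1233 and 1288 CPM in K.

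Of 15 tested mesenchymal markers 4 were lower in C, 1 was higher and 10 did not pass, with a median log2 fold change of -0.17. The shares of all tested genes that passed were 3.41% lower and 2.20% higher. TGFB2, a growth factor (log2 fold change -0.50, adjusted p = 0.00803), CAV1, which encodes caveolin (-0.37, adjusted p = 0.0118), FOXQ1, a forkhead factor (-0.26, adjusted p = 0.0277), and CAV2 (-0.25, adjusted p = 0.0316) were lower. AXL was higher and averaged 2640 ± 101.5 CPM in C, against 2283 ± 55.0 CPM in K, a log2 fold change of 0.21 (adjusted p = 0.0318). The TGFB2 call was held without any one library, that of CAV1 needed each of C1, K1 and K3 (highest adjusted p 0.0615), and those of FOXQ1, CAV2 and AXL were lost without any one except K2 (up to 0.105, 0.113 and 0.107). CAV2 also missed the threshold with an offset for GC content and length, which gave -0.16 (adjusted p = 0.0784), and on log2(TPM + 1) (0.102). FOXQ1 missed it on log2(TPM + 0.1) (0.0517). MSN, the most abundant of the list, had 3111 ± 89.2 CPM in C, against 2791 ± 93.7 CPM in K (adjusted p = 0.0570). ZEB1, a repressor of epithelial genes named after its values were seen, had 74.7 ± 2.58 CPM in C, against 84.3 ± 6.08 CPM in K, and missed the threshold (adjusted p = 0.137). The summed level of this list was higher in C, between 7335 and 7680 CPM, against 6790 to 7100 CPM in K, with AXL and MSN holding most of it. What part these levels have in the values of ELF3, SPDEF and GATA3 was not tested.

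The nearest tested genes on the chromosome were also read. They were picked by position after the first results were seen, and none of those given here for ELF3, SPDEF and GATA3 was lower past the test. RNPEP, on the lower-coordinate side of ELF3, had a log2 fold change of 0.07 (adjusted p = 0.318). SPDEF lies between RPS10 (log2 fold change 0.06, adjusted p = 0.427) and UHRF1BP1 (0.24, adjusted p = 0.0399). GATA3 lies between TAF3 (0.08, adjusted p = 0.259) and USP6NL, whose start is 3399 kb away (-1.38, adjusted p = 0.105). KRT8 lies between KRT81, given above, and EIF4B (0.25, adjusted p = 0.206).

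The genes whose log2 CPM followed each gene most closely over the 6 libraries were SLFN12 (Pearson r = 0.997) and DCBLD1 (0.995) for ELF3. For SPDEF they were PPA1 (0.998) and PRTFDC1 (0.997), for GATA3 SGSM2 (0.998) and RPAP2 (0.995), and for KRT8 TMEM263 (0.988) and FSTL1 (0.984). These likenesses are a description over 6 points that fall into 2 sets for ELF3, SPDEF and GATA3, and 186, 146 and 125 tested genes reached an r over 0.95 with them. With KRT8 14 genes did. DCBLD1 (log2 fold change -0.25, adjusted p = 0.0267) and PRTFDC1 (-0.19, adjusted p = 0.0415) were themselves lower in C.

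**Figure D5:**
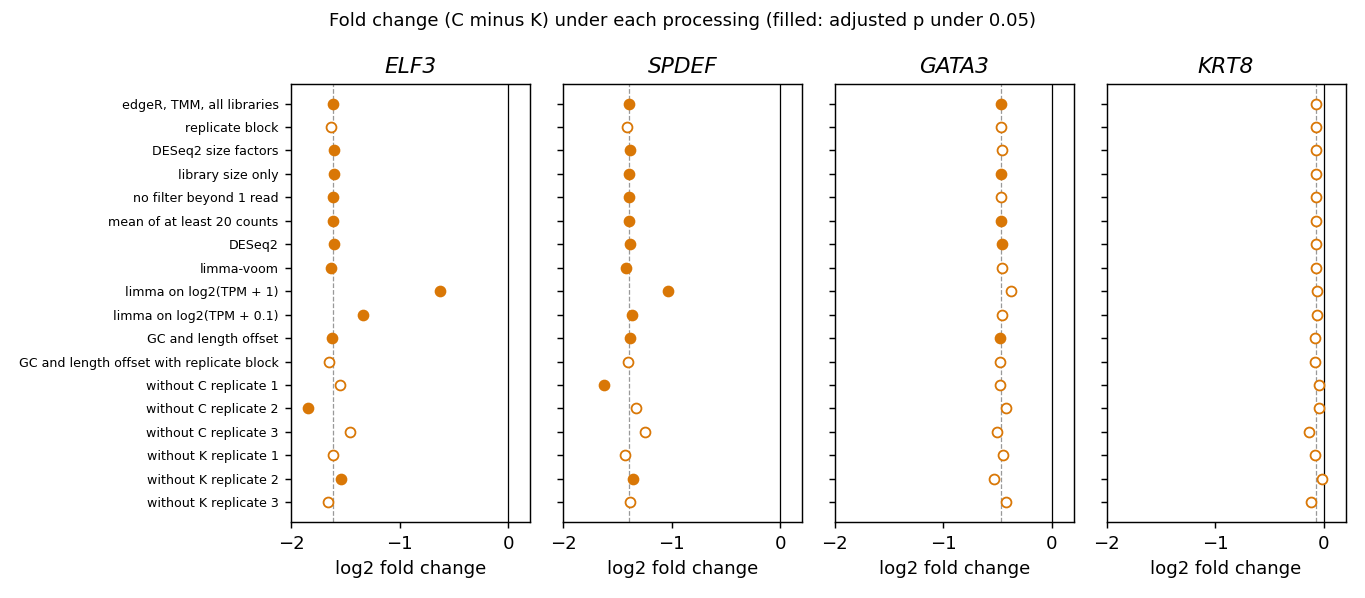
Log2 fold change, C minus K, of ELF3, SPDEF, GATA3 and KRT8 under the edgeR test and 17 alternatives, filled where the adjusted p was under 0.05, with a dashed line at the edgeR value. ELF3 and SPDEF stay below 0 and passed under 11 of 17 alternatives each, GATA3 under 4 and KRT8 under none.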

How the data were processed

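Per the labels' protocols, Trizol was used to extract RNA and a YEASEN mRNA kit to build the 6 libraries of MDA-MB-231. The authors deposited one table with read counts, TPM and FPKM per gene and library. The deposited counts are whole reads with no normalisation. Per the file headers, the authors also gave TPM and FPKM, which correct for gene length and depth. HISAT2 2.1.0, StringTie 1.3.3b, FastQC 0.11.2, Trimmomatic and the build GRCh38 are named in the submitters' processing notes. Which tool counted reads, and with which strand setting, is not given in the sources used here. Per library, the 13707 genes used hold 67.2% to 67.9% of the TPM total, and other genes were not analysed here. Library totals are sums over these genes, and 1 incomplete row was left out.

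The test was edgeR's quasi-likelihood test (edgeR 4.0.16, R 4.3.3) of C against K with no covariate, on the 9057 genes that filterByExpr kept (minimum count 10, minimum total 15), with TMM scaling (factors 0.993 to 1.007). P-values were adjusted over all tested genes by Benjamini-Hochberg at 0.05. The SE is the size of the log2 fold change divided by the square root of F. The steps were tested on simulated counts. Alternatives used DESeq2 1.42.0, limma 3.58.1, other scalings, filters, a GC and length offset from GENCODE 29, a replicate block and leaving out each library. Precision follows from 3 libraries per letter; no 2 libraries agreed within sampling noise (chi-square per degree of freedom at least 20.4).

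The 4 genes and the lists were chosen with earlier results of these data known. Genes named from a list were the members past the threshold, up to 4 by smallest p, and the 2 most abundant by TPM, with the 2 genes most alike in log2 CPM (prior count 2) for each of the 4. Other genes are said to have been named after their values were seen, apart from AXL, MSN, CDH1, KRT5, KRT14 and EPCAM, fixed as markers of the line. Some genes that this rule picks are not reported here.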

Additional observations from a re-analysis of the deposited data

How the results depend on the processing

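KRT8 stayed on its side of the threshold under all 17 alternatives, and ELF3, SPDEF and GATA3 kept their direction under all of them. Taken over all tested genes with equal weight, same-numbered libraries did not deviate together (correlations of -0.089, 0.032 and -0.004). Whether they share a smaller effect, or one in fewer genes, was not tested. With the library number as a block in edgeR the count over all genes was 25 (4 higher and 21 lower in C), against 508. ELF3 (-1.63, adjusted p = 0.0732), SPDEF (-1.41, 0.108) and GATA3 (-0.47, 0.147) then missed the threshold. With the block and the GC and length offset the count was 19 (4 higher, 15 lower), and ELF3 was at -1.65 (0.0857), SPDEF at -1.40 (0.113) and GATA3 at -0.48 (0.137). In both block fits 1 basal marker passed, and 0 in the luminal, ETS, keratin, desmosome, mesenchymal, ELF3 target and SPDEF target lists.

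GATA3 missed it with DESeq2 size factors (-0.46, 0.0504), no filter beyond 1 read (-0.47, 0.0548), limma-voom (-0.46, 0.0509), log2(TPM + 1) (-0.38, 0.0542) and log2(TPM + 0.1) (-0.46, 0.0585). ELF3 was at -0.63 and SPDEF at -1.03 with log2(TPM + 1), where the added 1 shrinks low genes. The GC and length offset called 585 genes, of which 326 were higher and 259 lower in C, so most calls then lay on the higher side. DESeq2 called 1016 genes (511 higher, 505 lower in C, against 199 and 309 in edgeR), log2(TPM + 1) 291 (136 and 155) and log2(TPM + 0.1) 258 (119 and 139). In both TPM fits 0 luminal, ETS, ELF3 target, SPDEF target and basal members passed and 1 desmosome member; 3 mesenchymal members passed with log2(TPM + 0.1). The keratin list gave 2 with library size only, DESeq2 and the GC and length offset, the ETS list 2 with DESeq2 and that offset, and without a filter 0 luminal and 1 desmosome member passed. The cause of these changes was not tested.

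Leaving out one library in turn gave 77 (without C1) to 533 genes (without K2), and 99 to 117 genes without any one of the others. ELF3 then ran from -1.85 to -1.46, SPDEF from -1.62 to -1.25, GATA3 from -0.53 to -0.42 and KRT8 from -0.14 to -0.02. Calls ran from 0 to 0 in the luminal, GATA family and GATA3 target lists, 0 to 1 in the ETS, keratin, desmosome, ELF3 target and SPDEF target lists, 1 to 2 in the basal list and 1 to 6 in the mesenchymal list. Of 17 alternatives for each of the 4 genes, 43 comparisons stayed on the same side of the threshold and 25 lost the call. KRT8, which had no call to lose, gave 17 of the 43. ELF3 and SPDEF kept their calls under 11 alternatives each and GATA3 under 4. ELF3 rests on 30 to 52 reads per C library, and the size of difference detectable at that depth was not tested.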
